A study of Mus musculus with 6 samples.

Results

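Genes that copy DNA and genes that divide the cell were read as 2 classes of a set of 49, in neural crest cells sorted from the branchial arches of mouse embryos at E11.5. The replication class holds 24 genes and the mitosis class 25. The rule lists the members by symbol, as a reading of proliferation in each library, and all 49 were among the 14555 genes with enough counts to test, of 21006 symbols in the table. In the mutant cells no replication gene and no mitosis gene passed the edgeR test against control, where 3.01% of all tested genes did. With DESeq2, 1 gene of each class was called lower, against 3.11% of the genes tested there. The mitosis genes lay slightly lower in the mutant libraries, with a median log2 fold change of -0.12, while the replication genes had a median of -0.02. When libraries were scaled by their totals alone, these medians were -0.03 and 0.06, and negative values fell from 23 to 16 of 25 mitosis genes. The same scaling moved the median over all tested genes from -0.01 to 0.07. For all 49 genes the 95% interval of the fold change stayed within 1 log2 unit of no change.

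The branchial arches are the paired outgrowths that build the jaw, the middle ear and the throat, and neural crest cells form most of their mesenchyme. The 3 DKO (double knockout) libraries had the genotype Ehmt1f/f, Ehmt2f/f, in which Ehmt1 and Ehmt2 are flanked by sites for Cre recombinase, and the 3 control libraries were Ehmt1+/+, Ehmt2+/+. Both groups carried Rosa26 TdTomato/+, a red reporter switched on by Cre, and Wnt1-cre, which drives Cre in the premigratory neural crest and in the dorsal neural tube, so the controls carried Cre as well. Ehmt1 and Ehmt2 encode the partner enzymes GLP and G9a, which place mono- and dimethyl marks on lysine 9 of histone H3. The replicates are called biological, and the labels do not say how many embryos made a library. Red cells were purified by flow sorting, their polyadenylated RNA was sequenced with a stranded mRNA kit, and the design asks how losing both enzymes changes expression in these cells.

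Cells that divide pass from a gap into S phase, in which DNA is copied, and after a second gap into mitosis. Replication genes are switched on by E2F factors as cells enter S phase. Mitosis genes come on later, through promoters that carry a CHR element (cell cycle genes homology region) read by the MuvB complexes together with B-MYB and FOXM1, often near CCAAT boxes bound by NF-Y. In bulk RNA the level of both classes follows the share of cells that are cycling, and a smaller share of cycling cells cannot be told apart from less of each RNA per cell. No direct measure of division, such as labelled DNA or a count of mitotic figures, was analysed here.

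Libraries held 23414466 to 44538260 counts (a ratio of 1.90), and a member had between 858 and 38401 counts in a library. Levels are given as CPM, counts scaled to a common library total after TMM correction, and errors are the SD over 3 libraries. The targeted genes followed the labels: Ehmt1 was at 148 ± 18.2 CPM in the DKO and at 259 ± 8.92 CPM in the control libraries (log2 fold change -0.81, edgeR adjusted p = 0.00476). For Ehmt2 the levels were 128 ± 11.3 and 355 ± 7.13 CPM (log2 fold change -1.47, edgeR adjusted p = 0.000208). Across the whole table edgeR called 319 genes higher and 119 lower in DKO at an adjusted p below 0.05, which is 3.01% of the tested genes, and 0.818% for the lower ones alone. The higher share of these calls was 72.8%, against 83.9% when libraries were scaled by their totals alone (416 higher, 80 lower) and 57.3% with DESeq2 (642 higher, 479 lower).

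The sorted cells carried the markers of arch mesenchyme: all 15 genes of a crest mesenchyme list were tested, none was called, and their summed level was 1995 to 2353 CPM in DKO and 2253 to 2655 CPM in control. In the mesenchyme list 11 of 15 fold changes were negative, against 51.2% of all tested genes, and the median was -0.17. At an unadjusted p below 0.05, 4 of them were lower, against 9.89% of all tested genes. Neuron markers summed to 1394 to 1572 CPM in DKO and 1501 to 1884 CPM in control. Of the 12 neuron markers, 11 had a negative fold change and Pou4f1, a sensory neuron transcription factor, was called lower (log2 fold change -0.45, edgeR adjusted p = 0.0306) and stayed so under 8 of 13 alternative settings. All 6 endothelial markers were tested, and they summed to 27.3 to 30.4 CPM in DKO and 13.5 to 17.8 CPM in control, and Tie1, a receptor of blood vessels, was called higher (log2 fold change 3.04, edgeR adjusted p = 0.000503). Muscle markers summed to 14.6 to 29.3 CPM in DKO and 10.8 to 15.8 CPM in control, of which Myl1, a myosin light chain that edgeR called higher, made up only 0.86 and 0.068 CPM on average. None of these lists had a marker at 0 in all libraries. Of these 4 sums only the endothelial one separated the groups, and the others overlapped. Crest glia and progenitor markers also separated, narrowly, with sums of 259 to 272.1 CPM in DKO and 272.2 to 298 CPM in control. These 6 markers went both ways, with 4 negative and 2 positive log2 fold changes, the highest 0.74. Erythroid markers summed to 19.2 to 321 CPM in DKO and 105 to 183 CPM in control. Epithelial and immune sums overlapped as well. The part of these cell types in the levels of the cell cycle genes was not tested.

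Letters upstream of the start sites were counted in each class, with no test of the classes against each other. RefSeq promoters on GRCm38.p6 were at hand for 41 of the 49 genes, 20 of the replication class and 21 of the mitosis class, and the 250 bases before each start were searched on both strands. The CHR letters TTTGAA or TTCGAA were found for 9 of 21 mitosis genes (42.9%) and 4 of 20 replication genes (20%), against 19.6% of all 27025 genes with a promoter. The E2F letters TTTCCCGC, TTTGGCGC, TTTGCCGC or TTTCGCGC were found for 5 of 20 replication genes (25%) and for 1 of 21 mitosis genes (4.76%), Cdk1, against 2.16% of all genes. CCAAT was found for 18 of 21 mitosis genes (85.7%), 13 of 20 replication genes (65.0%) and 37.5% of all genes. A match is a description of the sequence and not a bound site.

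Promoters of 2 mitosis genes and 2 replication genes show the element searched for in each class. Each is printed on its gene's strand, 5′ to 3′, as the stretch before the start that lies in no annotated exon, with the CHR letters in capitals for mitosis genes and the E2F letters in capitals for replication genes. They lie at chr7:135716451-135716629 (Mki67, minus strand, 179 bases), chr11:99024200-99024439 (Top2a, minus strand, 240 bases), chr8:75109259-75109467 (Mcm5, plus strand, 209 bases) and chr1:128359706-128359955 (Mcm6, minus strand, 250 bases).
Mki67: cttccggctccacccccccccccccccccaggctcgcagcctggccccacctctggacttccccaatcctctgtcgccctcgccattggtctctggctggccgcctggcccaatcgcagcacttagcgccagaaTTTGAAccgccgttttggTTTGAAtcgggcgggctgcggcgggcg
Top2a: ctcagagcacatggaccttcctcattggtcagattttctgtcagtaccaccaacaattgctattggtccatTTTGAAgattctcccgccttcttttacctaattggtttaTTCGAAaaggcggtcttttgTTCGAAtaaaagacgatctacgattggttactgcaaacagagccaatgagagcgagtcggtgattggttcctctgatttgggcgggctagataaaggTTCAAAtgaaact
Mcm5: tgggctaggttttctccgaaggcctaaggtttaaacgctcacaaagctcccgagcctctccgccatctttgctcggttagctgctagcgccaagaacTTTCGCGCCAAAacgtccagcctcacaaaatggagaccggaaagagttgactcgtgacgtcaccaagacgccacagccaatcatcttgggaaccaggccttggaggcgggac
Mcm6: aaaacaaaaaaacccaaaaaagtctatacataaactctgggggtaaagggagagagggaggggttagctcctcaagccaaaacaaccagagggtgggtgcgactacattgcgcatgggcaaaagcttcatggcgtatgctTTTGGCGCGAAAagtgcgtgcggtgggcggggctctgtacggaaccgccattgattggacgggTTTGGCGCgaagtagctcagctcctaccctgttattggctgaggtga
Mki67 has 2 CHR matches, and Top2a has 4, the last of them on the reverse strand. In Mcm5 and in Mcm6 matches on the 2 strands overlap, which gives a longer run of capitals, and Mcm6 has a further match nearer the start. All 4 promoters also hold CCAAT boxes, which are left in lower case.

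Fold changes were set beside these letters. Mitosis genes with a CHR match had a median log2 fold change of -0.18 (9 genes) and those without had -0.10 (12 genes). Replication genes with an E2F match had a median of -0.04 (5 genes) and those without had -0.02 (15 genes). Genes of 1 class share their libraries, so these medians are a description and were not tested against each other.

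Levels differed widely between members. Per kilobase of exon, Rrm2 was the highest in control at 119.7 CPM, followed by Cdc20 at 103, Top2a at 102, Mcm4 at 95.2, Mcm5 at 92.0 and Pcna at 90.2. Gins2 at 10.5, Ccne2 at 10.6, Pola1 at 10.9 and Mcm10 at 13.4 were the lowest on the same scale. The length used is the union of all annotated exons of a gene (4097 bases for Gins2, 11012 for Rrm1). It is not the length of 1 transcript, so the order depends on the annotation. The class medians per kilobase were close, 35.8 CPM for replication and 39.2 CPM for mitosis genes. Of the members, 13 overlap another annotated gene and 4 (Pcna, Tyms, Ccnb1 and Ccnb2) have named pseudogenes, and it is not given how reads were shared there.

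Among the genes that load and open the replicative helicase, none passed the test and most groups overlapped. The 6 MCM subunits, which form the ring of the helicase, had a median log2 fold change of -0.08 with 6 negative values, or 3 negative values with libraries scaled by their totals alone. Mcm2 read 370.2, 345 and 370.0 CPM in DKO 1 to 3 and 357, 394 and 419 CPM in control 1 to 3, so the ranges overlapped (log2 fold change -0.11, standard error 0.08 and edgeR adjusted p = 0.483). Mcm4 was at 309.7, 296 and 309 CPM in DKO, against 321, 340.4 and 364 CPM in control, the only MCM gene whose groups did not overlap (log2 fold change -0.17). The loading factors Cdc6 and Cdt1, which bring MCM rings to origins, had positive values of 0.07 and 0.11 with overlapping groups. Cdc6 had the highest upper bound of any member, 0.39 on the log2 scale, or 31.1% above control.

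Helicase activators lay near or slightly above 0. Cdc45, which joins the MCM ring and the GINS complex into the working helicase, had a log2 fold change of -0.01, and the GINS subunits Gins1 and Gins2 had 0.08 and 0.16. Gins2 was the only member of either class with every DKO library above every control library: 49.6, 48.9 and 45.3 CPM in DKO and 41.1, 43.9 and 43.7 CPM in control. That difference did not pass the test (SE 0.08, edgeR adjusted p = 0.268), and 2108 of 14555 tested genes had the same order. Mcm10, which helps start the helicase, had a log2 fold change of 0.03.

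At the replication fork, Pola1 had the smallest adjusted p of all 49 genes. It encodes the catalytic subunit of the polymerase that lays down primers, and it read 77.2, 78.7 and 84.9 CPM in DKO 1 to 3 and 93.6, 95.4 and 98.4 CPM in control 1 to 3. Every DKO library was below every control library (mean 80.2 ± 4.07 against 95.8 ± 2.46 CPM, log2 fold change -0.26, standard error 0.07 and edgeR adjusted p = 0.0895). DESeq2 called Pola1 lower (log2 fold change -0.26, adjusted p = 0.0293), and so did edgeR without DKO replicate 3 (log2 fold change -0.30, adjusted p = 0.0415). Over 13 alternative settings its adjusted p ran from 0.0293 to 0.338. Its partner Prim1, the primase, lay lower in every DKO library, at 73.4, 74.1 and 68.4 CPM against 75.5, 79.4 and 79.1 CPM (log2 fold change -0.12, edgeR adjusted p = 0.36).

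The clamp and the maturation enzymes at the fork gave no such order. Pcna, the sliding clamp that holds polymerases on DNA, was at 239, 218 and 210.2 CPM in DKO, against 188, 248 and 213 CPM in control. Control 1 was the lowest and control 2 the highest of all 6 libraries, with the DKO libraries between them (log2 fold change 0.04, standard error 0.11 and edgeR adjusted p = 0.875). The clamp loader subunit Rfc4 and the flap nuclease Fen1, which trims Okazaki fragments, had log2 fold changes of 0.03 and -0.02.

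Of the genes that supply nucleotides, Rrm1 had the larger difference. Rrm1 and Rrm2 encode the large and small subunits of ribonucleotide reductase. Rrm1 read 391, 359.7 and 414 CPM in DKO and 407, 481 and 522 CPM in control, with DKO 3 above control 1 (log2 fold change -0.27, standard error 0.11 and edgeR adjusted p = 0.191). Rrm2 read 318, 278 and 324 CPM and 291, 375 and 329.9 CPM, with control 1 inside the DKO range (log2 fold change -0.11, standard error 0.11 and edgeR adjusted p = 0.591). Tyms, which makes thymidylate, had a log2 fold change of -0.05.

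Among the genes that open S phase, Ccne2 varied most. The E cyclins Ccne1 and Ccne2 activate Cdk2 at the start of S phase. Ccne2 was at 27.1, 24.7 and 35.8 CPM in DKO, against 36.5, 40.6 and 34.4 CPM in control, where DKO 3 sat among the controls (log2 fold change -0.35, standard error 0.14 and edgeR adjusted p = 0.22). Its 95% interval reached the lowest bound of any member, -0.68, or -37.4% relative to control. Without DKO replicate 3, edgeR called Ccne2 lower (log2 fold change -0.52, adjusted p = 0.0279), and over the 13 alternatives its adjusted p ran from 0.0279 to 0.502.

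Ccne1, E2f1 and Slbp had overlapping levels in the groups. Ccne1 read 95.6, 78.6 and 105 CPM in DKO and 78.4, 102 and 99.95 CPM in control (log2 fold change -0.01, standard error 0.13 and edgeR adjusted p = 0.985). E2f1, an activator of replication genes, read 71.1, 64.0 and 74.2 CPM and 66.0, 68.8 and 74.9 CPM (log2 fold change -0.00, standard error 0.08 and edgeR adjusted p = 0.991). Slbp, which binds the stem loop of histone mRNAs, read 156, 149 and 159 CPM and 142, 165 and 163 CPM (log2 fold change -0.02, standard error 0.08 and edgeR adjusted p = 0.926). For all 3 genes DKO 2 and control 1 were the 2 lowest libraries.

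**Figure D1:**
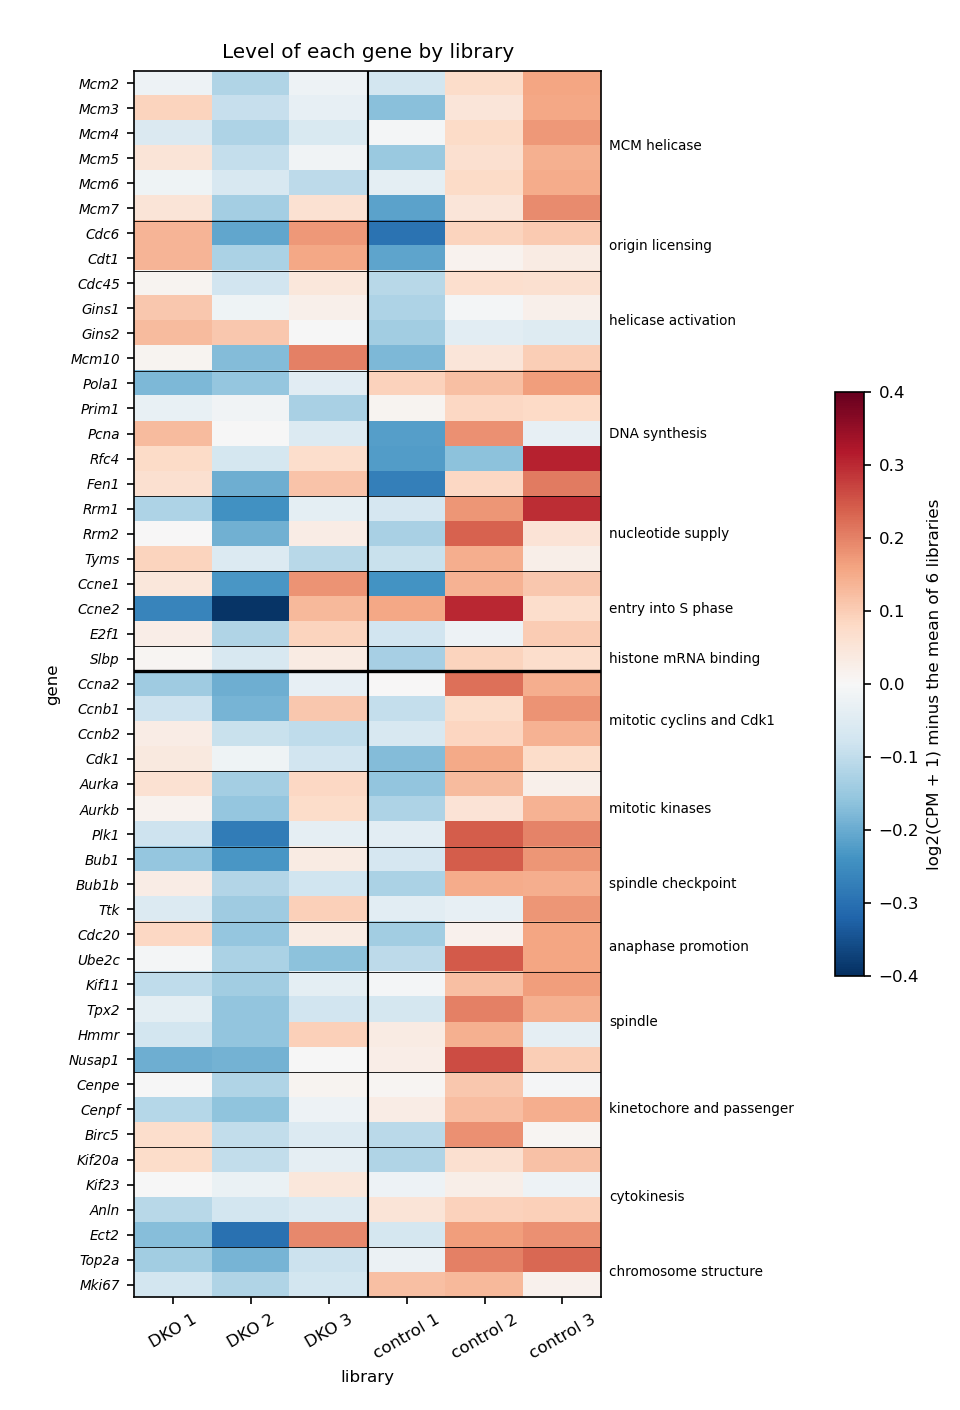
Level of each gene in each library, as log2(CPM + 1) minus the gene's mean over 6 libraries, with red above and blue below that mean; replication genes stand above the thick line and mitosis genes below it, grouped by role. DKO 2 and control 1 are blue for most genes, and control 2 and control 3 are red for most genes of both classes.

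Of the mitosis genes, the 2 that shape and coat chromosomes both had non-overlapping groups. Every DKO library lay lower than every control library, as for 12.7% of all tested genes. Top2a, the topoisomerase that untangles sister chromatids, was at 760.2, 735 and 789 CPM in DKO 1 to 3 and 824, 962 and 981 CPM in control 1 to 3. The groups did not overlap (mean 761 ± 26.7 against 922 ± 86.0 CPM, log2 fold change -0.28, standard error 0.09 and edgeR adjusted p = 0.146). DESeq2 called Top2a lower (log2 fold change -0.28, adjusted p = 0.0405), and limma-voom called no member of either class. Over the 13 alternatives its adjusted p ran from 0.0405 to 0.402. Mki67, which coats mitotic chromosomes and gives the Ki-67 stain of dividing cells, was at 751, 727 and 752 CPM in DKO, against 859, 865 and 799.6 CPM in control. Here too the lowest control was above the highest DKO library (log2 fold change -0.18, standard error 0.07 and edgeR adjusted p = 0.221).

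The cyclins and their kinase differed from one another. Ccna2, cyclin A2, acts from S phase into early mitosis, and read 235, 227 and 254 CPM in DKO and 260.2, 303 and 287 CPM in control with no overlap (log2 fold change -0.25, standard error 0.08 and edgeR adjusted p = 0.15). Cdk1, the kinase that drives entry into mitosis, read 162, 155 and 149 CPM and 139.5, 175 and 166 CPM, with control 1 the lowest of the 6 (log2 fold change -0.04, standard error 0.09 and edgeR adjusted p = 0.843). Its partner Ccnb1, cyclin B1, read 143, 133 and 163 CPM and 141, 159 and 171 CPM in overlapping groups (log2 fold change -0.10, standard error 0.10 and edgeR adjusted p = 0.595). Cyclin B2, from Ccnb2, had a log2 fold change of -0.11.

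The mitotic kinases showed the same unevenness. Plk1, which acts at centrosomes, kinetochores and the midbody, was at 158, 138 and 163 CPM in DKO, against 163, 198 and 192 CPM in control. DKO 3 lay just above control 1, so the groups overlapped (log2 fold change -0.27, standard error 0.10 and edgeR adjusted p = 0.181). Aurka, the centrosome and spindle kinase, was at 129, 113 and 131 CPM and 111, 135 and 126 CPM (log2 fold change 0.01, standard error 0.10 and edgeR adjusted p = 0.98). Aurkb, the kinase of the chromosomal passenger complex, had a log2 fold change of -0.05.

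Spindle genes had a median log2 fold change of -0.19, and all 4 values were negative, also with libraries scaled by their totals alone. Nusap1, which bundles spindle microtubules around chromosomes, read 98.2, 98.7 and 112 CPM in DKO and 115, 135 and 121 CPM in control without overlap (log2 fold change -0.26, standard error 0.09 and edgeR adjusted p = 0.156). Kif11, the motor that pushes spindle poles apart, read 255, 248 and 266 CPM and 272, 297 and 307 CPM, also without overlap (log2 fold change -0.19). Tpx2, which activates Aurka on the spindle, and Hmmr, a spindle assembly factor, had log2 fold changes of -0.19 and -0.09.

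Checkpoint, kinetochore and exit genes lay between -0.24 and -0.03. With libraries scaled by their totals alone, 2 of 3 checkpoint, 1 of 3 kinetochore and passenger and 1 of 2 anaphase genes were negative. Bub1, Bub1b and Ttk, which hold anaphase until chromosomes are attached, had log2 fold changes of -0.24, -0.12 and -0.07. Cenpf, a kinetochore protein, was at 223, 216 and 238 CPM in DKO, against 246, 263 and 267 CPM in control without overlap (log2 fold change -0.20), while the kinetochore motor Cenpe and the passenger protein Birc5 had -0.07 and -0.06. Of the factors that drive protein destruction at anaphase, the ubiquitin conjugating enzyme Ube2c had -0.21 and the activator Cdc20 had -0.03.

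Cytokinesis genes, which build and close the furrow, included the member with the smallest SE. Anln, which links actin, myosin and septins in the furrow, read 118, 122 and 123 CPM in DKO and 133, 137 and 137 CPM in control without overlap (mean 121 ± 2.46 against 136 ± 2.28 CPM, log2 fold change -0.16, standard error 0.06 and edgeR adjusted p = 0.185). Kif23, of the central spindle, read 139.7, 137 and 144 CPM and 138, 142 and 138 CPM, close to the same level in all 6 libraries (log2 fold change 0.01). Kif20a, another central spindle motor, and Ect2, the activator of RhoA at the furrow, had log2 fold changes of -0.04 and -0.18.

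Counted together, edgeR called 0 of 49 genes, where it called 3.01% of all tested genes. At an unadjusted p below 0.05, 11 genes were lower and none was higher: Pola1, Rrm1 and Ccne2 of the replication class, and Top2a, Mki67, Ccna2, Plk1, Kif11, Cenpf, Nusap1 and Anln of the mitosis class. Those are 3 of 24 and 8 of 25 genes, against 9.89% of all tested genes. DESeq2 called 2 members lower, Pola1 and Top2a, where it called 3.11% of 15386 genes lower. Without DKO replicate 3, edgeR called 2 members lower, Pola1 and Ccne2, against 3.49% of the genes tested there.

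Every DKO library lay below every control library for 10 members, 3 of the replication class (Mcm4, Pola1 and Prim1, 12.5%) and 7 of the mitosis class (28%). The same held for 12.7% of all tested genes, so the replication share is near that background and the mitosis share is above it. Gins2 alone of the 49 members had the opposite order, against 2108 of 14555 tested genes. The other 38 members overlapped, as did 10595 of all tested genes. Negative fold changes made up 23 of 25 mitosis genes and 17 of 24 replication genes, against 51.2% of all tested genes. The mitosis values ran from -0.28 to 0.01 and the replication values from -0.35 to 0.16, beside a median of -0.01 over all tested genes. The genes of a class share their libraries and cannot be counted as independent.

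**Figure D2:**
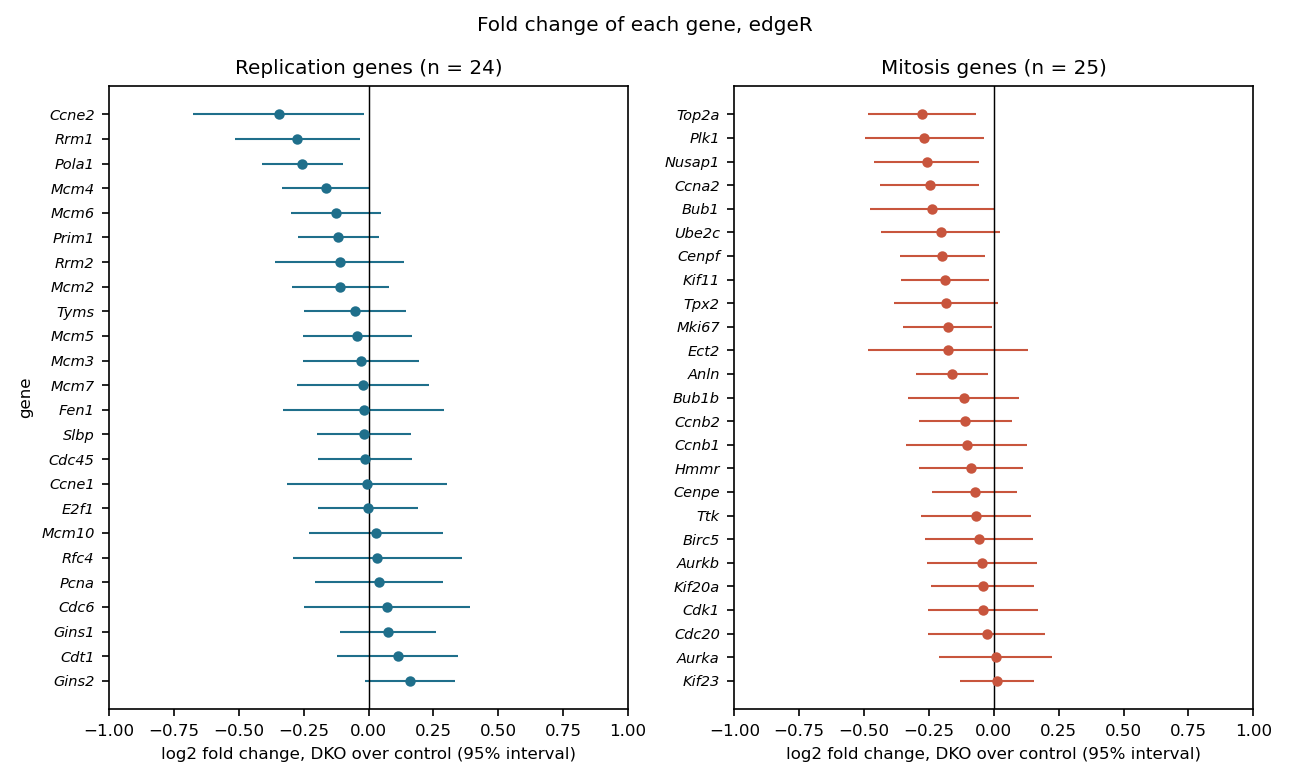
Log2 fold change of each gene, DKO over control, from edgeR with its 95% interval (3 against 3 libraries), replication genes on the left and mitosis genes on the right. All 49 intervals lie within 1 log2 unit of 0, and the mitosis points crowd to the left of 0 while the replication points fall on both sides.

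The precision bounds how large a change could have gone unseen. The median SE of a member's log2 fold change was 0.09, and 47 of the 49 intervals stayed within 0.5 log2 units of 0; Ccne2 and Rrm1 reached past it. Intervals within 1 log2 unit were found for all 49 members and for 81.5% of all tested genes. A test that missed its threshold does not show that the levels were equal.

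Library by library, the classes moved together. The mean log2(CPM + 1) of the replication genes was 7.05 ± 0.083 in DKO and 7.09 ± 0.126 in control. For the mitosis genes it was 7.46 ± 0.072 and 7.59 ± 0.102, a difference of -0.13 that was larger than the pooled SD of 0.088. DKO 2 had the lowest level of the 3 DKO libraries for 38 of 49 members (77.6%, against 34.3% of all tested genes), and control 1 the lowest of the 3 controls for 45 of 49 (91.8%, against 33.9%).

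The summed replication level was 4313, 3920.5 and 4279 CPM in DKO 1 to 3 and 3936, 4570.4 and 4705 CPM in control 1 to 3, and the summed mitosis level was 5379, 5051 and 5477 CPM in DKO 1 to 3 and 5494, 6204 and 6100.0 CPM in control 1 to 3. Control 1 lay within the DKO range in the replication sum and just above it in the mitosis sum. In the mitosis mean of log2 levels it lay inside the DKO range (7.47, against 7.38 to 7.51 in DKO), so the groups overlapped on that measure. The 2 libraries with the highest levels, control 2 and control 3, were also the 2 with the fewest counts, 23414466 and 30385724, and control 1 had the most, 44538260. As shares of all counts, the replication genes took 0.429% ± 0.0205 in DKO and 0.428% ± 0.0297 in control, and the mitosis genes 0.545% ± 0.0221 and 0.576% ± 0.0217, where control 1 (0.551%) was below DKO 3 (0.566%). The part of depth in these levels was not tested.

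The balance between the classes was steadier than either level. The mitosis mean minus the replication mean was 0.387, 0.426 and 0.417 in DKO 1 to 3 and 0.522, 0.508 and 0.455 in control 1 to 3. The groups did not overlap, and the difference of -0.08 on the log2 scale exceeded the pooled SD of 0.029. A scaling factor shared by all genes of a library all but cancels in this difference. The ratio of the summed levels had the same order, 1.25, 1.29 and 1.28 in DKO and 1.40, 1.36 and 1.30 in control, with a narrow gap between DKO 2 and control 3. With 3 libraries a group no p is given for such a score over chosen genes. In the 45 further replication and 58 further mitosis genes described below, the 2 classes differed less, and the ratio of summed levels overlapped between the groups. That ratio was higher in DKO 3 (mitosis 6915 over replication 4446 CPM) than in control 3 (7228 over 4733 CPM). Both had a median log2 fold change of -0.05. The DKO over control ratio of their mean sums was 0.949 for replication and 0.936 for mitosis, against 0.947 and 0.894 for the members.

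**Figure D3:**
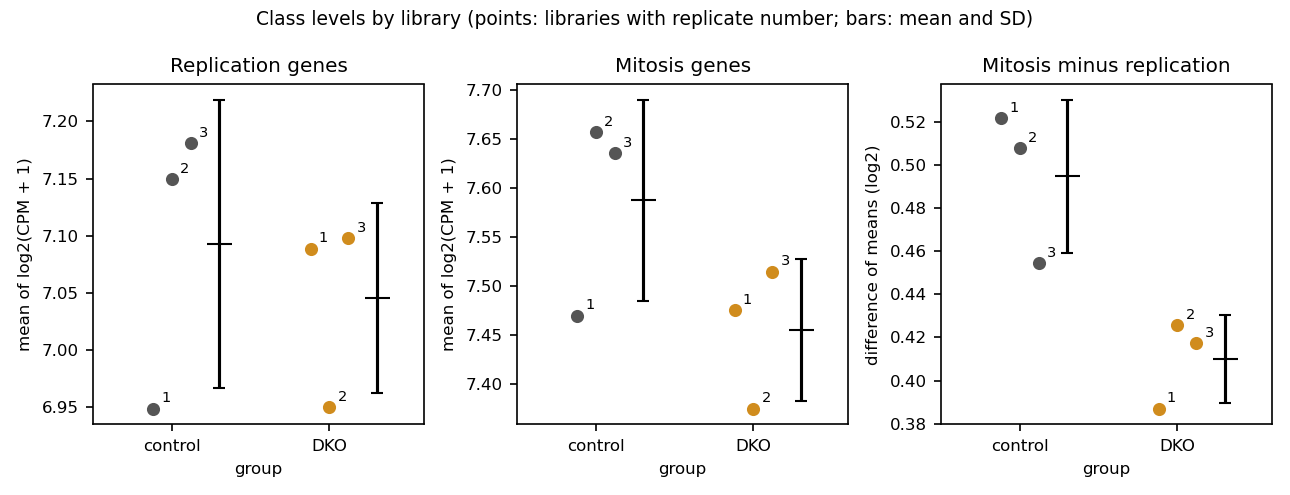
Class levels by library: mean log2(CPM + 1) of the replication genes (left), of the mitosis genes (middle) and their difference (right), with points for libraries numbered by replicate and bars for the mean and SD of each group. Control 1 lies near DKO 2 in the left panel, while in the right panel all DKO libraries (0.387 to 0.426) lie below all controls (0.455 to 0.522).

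The medians depended on which library was in the comparison. Leaving out 1 library at a time moved the replication median between -0.11, without control 1, and 0.02, without control 3, and the mitosis median between -0.17 and -0.09. Without DKO 2 or without control 2, no mitosis gene had an unadjusted p below 0.05, and without control 1 there were 12. Scaling by library totals alone moved the median of all tested genes up by 0.08; the mitosis median was then -0.03 and the replication median 0.06, and 16 of 25 and 8 of 24 values were negative.

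**Figure D4:**
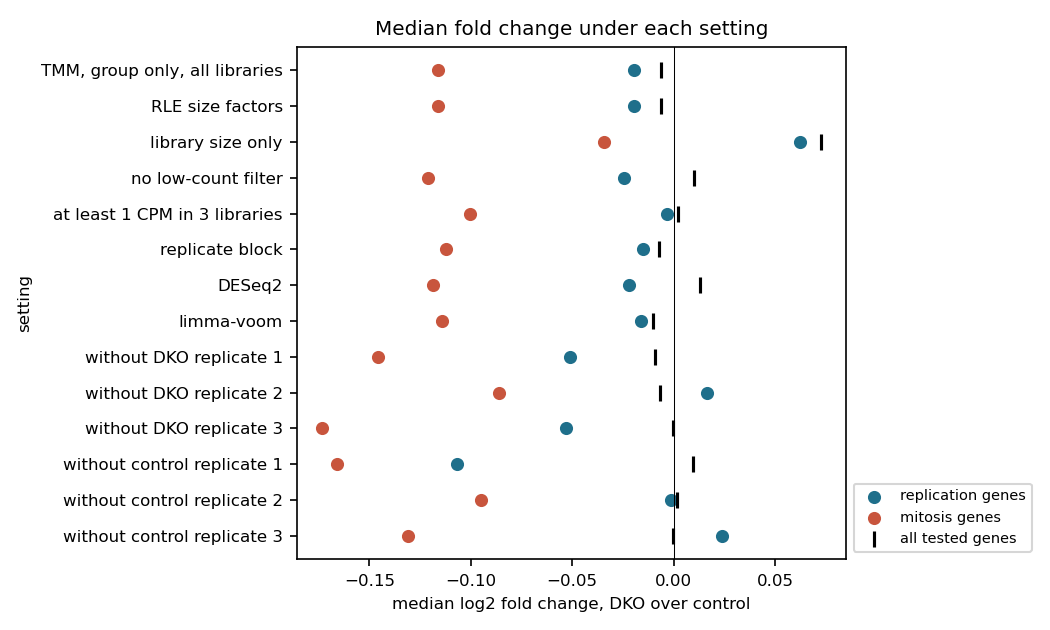
Median log2 fold change, DKO over control, of the replication genes, the mitosis genes and all tested genes under each processing setting, named on the vertical axis. The mitosis median lies below the replication median under every setting shown, and the replication median crosses 0 under 3 of them.

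Other genes of the same processes gave 0 calls, where 3.01% of all tested genes were called. At an unadjusted p below 0.05, 9.89% of all tested genes were lower and 1606 of 14555 were higher. Of 45 further replication genes edgeR called none, with 4 lower and 2 higher at an unadjusted p below 0.05 and a median log2 fold change of -0.05. They include Uhrf1, which brings maintenance methylation to new DNA (-0.14), and Lig1, the ligase of Okazaki fragments (-0.11), and the smallest adjusted p was that of Orc2, an origin recognition subunit (-0.47, adjusted p = 0.0676). The highest value in that list was 0.31, of Rnaseh2a (edgeR adjusted p = 0.116). Of 58 further mitosis genes edgeR also called none, with 9 lower and 1 higher unadjusted and a median of -0.05. Their highest value was 0.74, of Pttg1 (edgeR adjusted p = 0.121), where every DKO library lay above every control library. That order held for 2 of the 58 genes, against 2108 of 14555 tested genes. The opposite order held for 11 of the 58, against 12.7% of all tested genes. Ncapd2, a condensin subunit, had -0.15, Hjurp, the chaperone of the centromeric histone, had -0.27, and the smallest adjusted p was that of Cenpk, of the inner kinetochore (-0.68, adjusted p = 0.0566).

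Of 28 genes of cell cycle entry and E2F control, edgeR called 1, Ccnd2, lower, a share near the 3.01% called among all tested genes. The median of the list was -0.11, and 21 values were negative. At an unadjusted p below 0.05, 6 were lower, against 9.89% of all tested genes, and 1 was higher. For 8 of the 28 (28.6%) every DKO library lay below every control library, against 12.7% of all tested genes. Ccnd2 encodes cyclin D2, which couples growth signals to Cdk4 and Cdk6, and it read 489, 525 and 518 CPM in DKO 1 to 3 and 643, 649.9 and 744 CPM in control 1 to 3. The groups did not overlap (mean 510 ± 18.9 against 679 ± 56.1 CPM, log2 fold change -0.41, standard error 0.08 and edgeR adjusted p = 0.0415). The call held under 5 of 13 alternatives, with an adjusted p from 0.000153 with DESeq2 to 0.208 without DKO replicate 1. It was lost with libraries scaled by their totals alone (adjusted p 0.0618), with the 1 CPM filter (0.0536) and with a replicate block (0.0532). It was also lost with DKO 2 or any 1 control left out (adjusted p 0.0622 without control 1, 0.108 without DKO 2, 0.116 without control 2 and 0.109 without control 3). Of 15 tested genes that block the cycle or mark its exit, none was called, with a median of 0.04 and with 2 higher and 2 lower unadjusted. The Cdk inhibitor Cdkn1c had a log2 fold change of -0.19 and the growth arrest gene Gas1 had -0.06.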

How the data were processed

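RNA of TdTomato-sorted E11.5 branchial arch cells was measured in 3 DKO and 3 control libraries. The deposited table gives unnormalized whole-number counts for each symbol. The submitters' processing notes name the build mm10 and the tools STAR 2.7.10a, Picard and Trim Galore. How reads were counted (program, annotation, strand, duplicates) is not given in the sources used here. The column names call the controls WT.

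Counts were fitted over all genes with the robust quasi-likelihood test of edgeR 4.0.16 (R 4.3.3), with filterByExpr (minimum count 10, total 15), TMM scaling and group as the only term. P-values are 2-sided, adjusted by Benjamini-Hochberg over 14555 genes and called below 0.05. The common dispersion was 0.0232. The procedure was tested on simulated data. Log2 fold changes are DKO over control, each SE is the fold change divided by the root of F, and class means use log2(CPM + 1). Alternatives were DESeq2 1.42.0, limma-voom (limma 3.58.1), other scalings and filters, a replicate block, and leaving out each library. Where that left 2 libraries in a group, the spread was pooled over both groups. Exon lengths are GENCODE M21 and promoters RefSeq GRCm38.p6. Same-group libraries differed far beyond counting noise (chi-square per degree of freedom 12.6 to 53.2), so none was a repeat deposit.

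The members and lists were chosen with earlier results of these data known. The rule for genes described in full took key genes of each role and those with the smallest p in each class. Mcm4, Prim1, Gins2, Kif11, Cenpf, Anln and Kif23 were given values after these were seen. In other lists the called genes, or the 2 of highest level, are named, with the gene of smallest p added after it was seen. Rnaseh2a and Pttg1 were also added after their values were seen.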

Additional observations from a re-analysis of the deposited data

How the results depend on the processing

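Every member had at least 858 counts in each library. With 3 libraries a group, an exact permutation test of a single gene could not go below p = 0.1. The mitosis minus replication difference moved by less than its pooled SD under every alternative run, and so did both class medians. DESeq2 called 1121 genes in all (642 higher, 479 lower), 1 replication gene and 1 mitosis gene. Leaving out 1 library at a time gave 131 to 1106 called genes in all (1106 without DKO replicate 3) and 0 to 2 replication genes. Scaling by library totals alone turned Ccne1 (0.076), E2f1 (0.077), Slbp (0.064) and Cdk1 (0.041) to positive log2 fold changes, and a filter of at least 1 CPM in 3 libraries turned Ccne1 (0.010) and E2f1 (0.014). Over the libraries left out, Pcna ranged from -0.045 to 0.16, Aurka from -0.059 to 0.081, Ccne1 from -0.11 to 0.10, E2f1 from -0.050 to 0.056, Slbp from -0.077 to 0.029 and Cdk1 from -0.12 to 0.035. Scaling by library totals alone moved the median of all tested genes up by 0.08. The cause of these changes of sign was not tested.

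Same-numbered libraries did not all deviate together (correlations -0.03, 0.00 and 0.44), so the numbers were not taken as pairs. Over all tested genes, the highest correlation was that of DKO 2 with control 1 (0.53). The lowest was that of DKO 2 with control 3 (-0.49). With the replicate number as a block edgeR called 423 genes higher and 196 lower, again no replication and no mitosis gene, with medians of -0.01 and -0.11; the block changed no other call among the members. Of 221 values of the genes described in full under the alternatives, 197 kept their direction and their side of the threshold.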

Other observations

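Genes that answer to DNA damage and replication stress were not called. Of 24 such genes edgeR called 0, where it called 3.01% of all tested genes, and their median log2 fold change was -0.03. At an unadjusted p below 0.05, 4 were lower and 0 higher, against 9.89% lower and 1606 of 14555 higher among all tested genes. Trp53bp1, which marks broken DNA ends, had -0.08, and H2ax, the histone variant phosphorylated at breaks, had -0.45 with the smallest adjusted p of the list (edgeR adjusted p = 0.0781). Replication-dependent histone genes are made in S phase and their mRNAs normally lack a poly(A) tail, so a library of polyadenylated RNA captures them poorly. Of 15 tested histone genes edgeR called 0, with 1 lower and 0 higher unadjusted, and their median was 0.15. The 2 with the highest mean level, H4c9 and H1f2, had log2 fold changes of 0.27 (SE 0.25) and 0.32 (SE 0.21), and H1f5 had -0.75 with the smallest adjusted p of the list (edgeR adjusted p = 0.179).

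Among the genes of cell cycle entry, Cdk6, a partner kinase of the D cyclins, had a log2 fold change of -0.53 that did not pass (edgeR adjusted p = 0.0501). Ccnd1 and Ccnd3, the other D cyclins, had -0.12 and -0.26. These 3 genes were chosen after their values were seen.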
